A study of Mus musculus with 6 samples.

Results

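The translation initiation and elongation factors of the mouse blastocyst are described here, in embryos that had been vitrified and warmed and in embryos that had not. Members were all genes of the deposited table whose name begins with Eif or Eef and that are annotated as protein coding, without the eIF2α kinases (names beginning with Eif2ak) and Eef1e1, which is a scaffold of the tRNA synthetase complex and no elongation factor. This rule, which uses no measured value, gave 60 of 28879 genes, of which 51 were Eif genes and 9 were Eef genes.

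The study compared mRNA of vitrified–warmed blastocysts with that of fresh blastocysts by RNA-Seq, to see what a vitrification procedure made for human embryos does to the transcriptome. There were 3 libraries of vitrified–warmed blastocysts and 3 libraries of fresh blastocysts, made with the Ovation SoLo kit for very small amounts of RNA. Embryos came from superovulated females of 6 to 8 weeks, which are named as C57BL/6JNarl in the sample labels and as B6CBF1 in the series design text, and were grown in culture for 3 days. Vitrified–warmed blastocysts went through the Cryotech kit, and fresh blastocysts went through neither vitrification nor warming. The embryos of a group were pooled and divided into 3 aliquots, so the p-values measure the spread between aliquots of 1 pool and not that between embryos or pools. RNA was taken from whole embryos, in which fewer cells of a type and less RNA per cell cannot be told apart. Levels of the factors below are those of their mRNA, and no protein was measured.

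Initiation factors bring the initiator tRNA, the small ribosomal subunit and the capped mRNA together and let the subunit scan to a start codon, while elongation factors deliver the aminoacyl-tRNAs and move the ribosome along. Control falls mainly on 2 steps: the loading of eIF2 with the initiator tRNA, which the exchange factor eIF2B renews, and the binding of eIF4E to the cap and to eIF4G, which the 4E-binding proteins block until mTORC1 phosphorylates them. In the preimplantation embryo these factors serve first the translation of stored maternal mRNA and then the growth of the trophectoderm and the inner cell mass.

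The members that bind eIF4E share a short site, in which a tyrosine and a leucine lie at a fixed spacing. The coding stretch of 39 bases around it is shown for 5 members because 3 of them, Eif4ebp1, Eif4ebp2 and Eif4enif1, passed the test below while the scaffolds Eif4g1 and Eif4g3 did not. Eif4ebp3, which was also called (lower, log2 −1.18), is not shown. Capitals mark the tyrosine codon and the leucine codon. The pattern searched for, with a hydrophobic residue after the leucine, occurred in 25.5% of 21479 proteins, so a match alone is no evidence of binding. All were read from GENCODE M21 transcripts on GRCm38.
Eif4ebp1, chr8:27273328-27273366, plus strand: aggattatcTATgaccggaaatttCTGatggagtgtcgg
Eif4ebp2, chr10:61435060-61435098, minus strand: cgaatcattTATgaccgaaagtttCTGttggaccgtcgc
Eif4enif1, chr11:3203733-3213280, plus strand, joined across an intron: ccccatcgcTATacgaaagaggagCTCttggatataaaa
Eif4g1, chr16:20681212-20681250, plus strand: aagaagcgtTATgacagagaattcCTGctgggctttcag
Eif4g3, chr4:138156641-138156679, plus strand: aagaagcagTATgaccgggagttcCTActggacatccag

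The γ subunit of eIF2 has a copy on the X and a copy on the Y chromosome, and their first 60 coding bases are shown because the Y copy was among the 9 members past the test with at least a 1.5-fold change. Capitals mark the 13 positions at which the copies differ, and over the aligned coding sequences they were 86.3% identical.
Eif2s3x, chrX:94212574-94212633, minus strand: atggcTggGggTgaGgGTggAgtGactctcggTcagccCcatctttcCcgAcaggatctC
Eif2s3y, chrY:1010617-1010676, plus strand: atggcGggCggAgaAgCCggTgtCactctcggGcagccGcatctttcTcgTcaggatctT

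Libraries of vitrified–warmed blastocysts held 9093411 to 11275436 exon fragments and those of fresh blastocysts 10788884 to 11843562, and 59 or 60 of the 60 members were detected in each. All 12 lineage markers of the blastocyst were present, with a summed level of 2450 to 2486 CPM (counts scaled to library size) in vitrified–warmed libraries and 2147 to 2255 CPM in fresh libraries. Markers of cumulus cells and of sperm stayed at or below 5.33 CPM in sum in all libraries, and oocyte markers at or below 16.6 CPM. The 10 markers of blood and immune cells summed to 14.4 to 19.5 CPM in vitrified–warmed libraries and 3.51 to 5.15 CPM in fresh libraries, with Hba-a2 at 0 in every library, and their part in the results below was not tested. Exon fragments were 54.4% to 56.6% of the library total behind the FPKM values (fragments scaled to exon length and library total) in vitrified–warmed libraries and 63.2% to 63.6% in fresh libraries, so FPKM values stand lower against CPM in the vitrified–warmed group.

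Members supplied 2.38%, 2.34% and 2.37% of all exon fragments in the vitrified–warmed libraries, against 2.42%, 2.46% and 2.45% in the fresh libraries. The 2 groups did not overlap, and the means differed by −0.08 percentage points (vitrified–warmed minus fresh). Eef1a1 alone gave 22.7% to 23.1% of the members' fragments in vitrified–warmed libraries and 23.9% to 24.1% in fresh libraries. Per length, 12 members stood above 100 FPKM, 42 above 10 FPKM and 6 below 1 FPKM as a mean over the 6 libraries.

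Of the 57 members with enough counts to be tested, 44 (77.2%) passed the quasi-likelihood test of edgeR with an adjusted p under 0.05, against 64.4% of all 12774 genes tested. In vitrified–warmed blastocysts 12 of them (21.1%) were higher and 32 (56.1%) were lower. Among all genes tested 31.6% were higher and 32.8% lower, so the members stood on the lower side more often than the genes at large, by count. These shares of all genes also stand beside the counts of each role group below. The members' median log2 fold change was −0.13 (range −1.33 to 0.94), against −0.00 for all genes tested. In 12 members the vitrified–warmed libraries all lay above the fresh ones and in 32 all lay below, where all genes gave 33.5% and 35.1%. Most differences were small, and 28 of the 44 called members differed by less than 1.25-fold. With at least a 1.5-fold change and a mean above 0.5 FPKM, 2 members were higher (3.51%, against 9.07% of all genes) and 7 were lower (12.3%, against 11.5%). With the study's cut-offs applied to the edgeR values, where p is unadjusted, these were again 2 and 7, against 9.17% and 11.6% of all genes. The study's own p-values and fold changes, from FPKM calibrated to housekeeping genes, were not used, so these are not its counts. The split depends on the scaling: a limma fit of log2(FPKM + 0.5) called 4 higher and 38 lower, with the median of all genes at −0.13 and that of the members at −0.30.

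**Figure D1:**
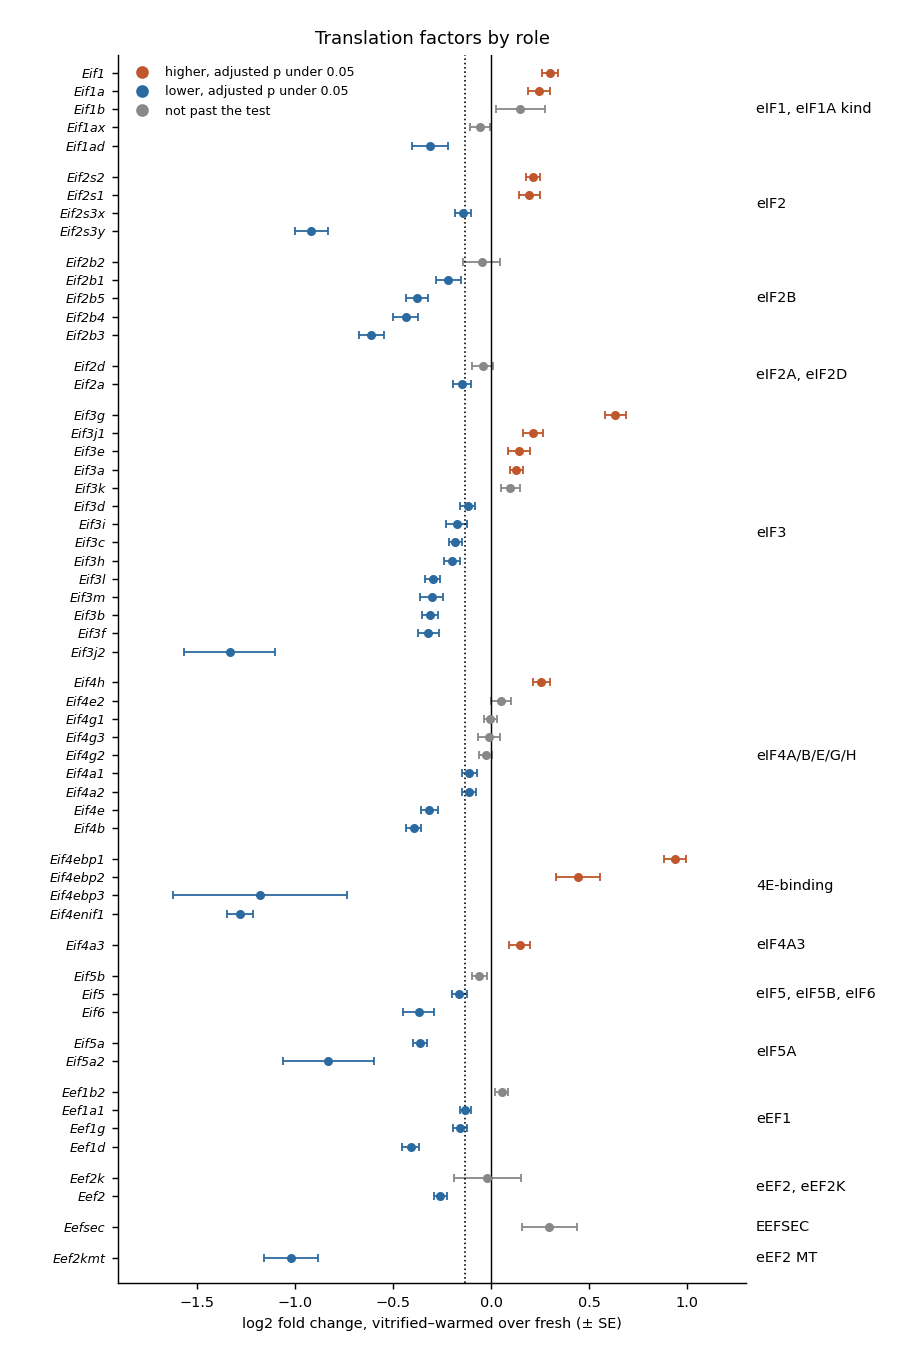
Log2 fold change (vitrified–warmed over fresh, edgeR, bars ± SE) of the 57 tested members, grouped by role, with those past the test higher in orange, lower in blue and the others in grey. The solid line is 0 and the dotted line the members' median of −0.13. Of the eIF2B subunits 4 of 5 are lower, against 32.8% of all genes tested. Eif4ebp1 at 0.94 and Eif4enif1 at −1.28 lie at opposite ends of the 4E-binding group.

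All 4 genes of the eIF4E-binding group (the 4E-BPs and 4E-T) passed the test, against 64.4% of all genes tested, with 2 higher and 2 lower. Eif4ebp1 (chr8:27260327-27275656) encodes 4E-BP1, which keeps eIF4E from eIF4G while it is not phosphorylated. It had 134.0, 142.4 and 145.8 CPM in vitrified–warmed libraries, against 67.8, 78.4 and 74.2 CPM in fresh libraries. Each vitrified–warmed library lay well above each fresh library, and the level was 1.92-fold higher (log2 0.94 ± 0.06 SE, adjusted p = 5.24e-09, edgeR). Eif4ebp2, its paralog, had 20.2, 22.3 and 19.5 CPM in vitrified–warmed libraries, against 13.6, 17.2 and 14.6 CPM in fresh libraries. These groups did not overlap either, and the difference was 0.44 ± 0.11 on the log2 scale (adjusted p = 0.00252, edgeR).

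Eif4enif1 (chr11:3201598-3244588) moved the other way. It encodes 4E-T, a shuttling protein that brings eIF4E into processing bodies and represses translation of the mRNA bound there. It had 31.7, 29.9 and 29.8 CPM in vitrified–warmed libraries, against 72.1, 73.3 and 76.6 CPM in fresh libraries. The spread within each group was small beside the gap, and the level was 2.43-fold lower (log2 −1.28 ± 0.06 SE, adjusted p = 1.03e-09, edgeR). The span of the gene overlaps by 1746 bases that of Sfi1 on the opposite strand, which had 22.7, 19.9 and 15.2 CPM in vitrified–warmed and 21.6, 18.1 and 19.3 CPM in fresh libraries and was not past the test (log2 −0.03). Eif4ebp3, the third 4E-BP, was scarce, with 1.03, 0.65 and 0.53 CPM in vitrified–warmed libraries and 1.66, 1.68 and 1.71 CPM in fresh libraries. It was called lower (log2 −1.18 ± 0.44, adjusted p = 0.0286, edgeR), and the call was lost without vitrified–warmed replicate 2 (adjusted p = 0.0921) or 3 (0.143), without fresh replicate 2 (0.0688) or 3 (0.0776), and in DESeq2 (0.0751).

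**Figure D2:**
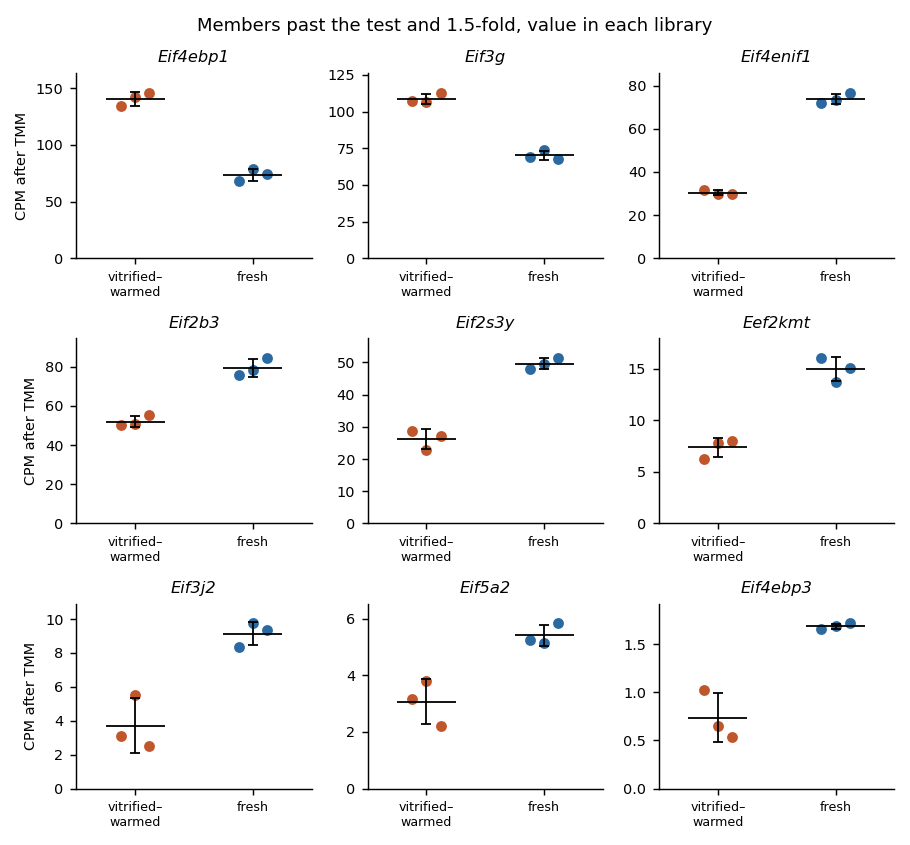
Normalised level (CPM after TMM scaling, axis from 0) of the 9 members past the test with at least a 1.5-fold change, with 1 point per library, vitrified–warmed on the left and fresh on the right; lines give the mean and bars the SD (n = 3). In all 9 the groups are apart, with Eif4ebp1 and Eif3g higher and the other 7 lower in vitrified–warmed blastocysts.

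The mRNA of the cap-binding protein itself was lower. Eif4e had 141.8, 132.4 and 140.7 CPM in vitrified–warmed libraries, against 167.5, 174.4 and 174.6 CPM in fresh libraries, with no overlap (log2 −0.32 ± 0.04, adjusted p = 1.55e-05, edgeR). Per length, the ratio of Eif4ebp1 to Eif4e was 3.01 ± 0.198 in vitrified–warmed and 1.26 ± 0.0666 in fresh libraries (SD, n = 3 each). The paralog Eif4e2 (4EHP), which binds the cap without taking up eIF4G, had 108.0, 105.7 and 103.2 CPM in vitrified–warmed libraries and 97.0, 107.3 and 101.8 CPM in fresh libraries and did not pass the test (log2 0.05 ± 0.05, with the sign turned on FPKM and with exon length correction). Its share of the summed eIF4E family level was 20.04% ± 0.745 in vitrified–warmed and 16.2% ± 0.490 in fresh libraries, and that of Eif4e was 79.4% ± 0.496 in vitrified–warmed and 82.8% ± 0.345 in fresh libraries.

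The oocyte-type paralog Eif4e1b and Eif4e3 had too few fragments to be tested. Eif4e1b gave 3, 4 and 14 fragments in vitrified–warmed libraries and 5, 10 and 17 in fresh libraries, so the groups overlap. Eif4e3 gave 1, 0 and 0 fragments in vitrified–warmed libraries and 11, 3 and 7 in fresh libraries. The ratio of its depth-scaled totals was 0.0523 with a 95% counting interval of 0.00126 to 0.325, which covers counting error only.

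The scaffolds of the cap complex overlapped between groups, and its helicases were called lower by a small amount. Eif4g1, the main eIF4G scaffold, had 735, 752 and 757 CPM in vitrified–warmed libraries and 722, 765 and 763 CPM in fresh libraries, and Eif4g2 and Eif4g3 likewise overlapped between groups. None of these 3 passed the test (log2 −0.00, −0.03 and −0.01, SE 0.03 to 0.06), and on FPKM, where all genes shift, Eif4g1 and Eif4g2 were called lower (−0.17 and −0.20 in limma, adjusted p = 0.00319 and 0.00232). The RNA helicases Eif4a1 and Eif4a2 differed by −0.11 each (adjusted p = 0.0188 and 0.0107, edgeR), which was lost for both with exon length correction (0.374 and 0.49), for both without vitrified–warmed replicate 1 (0.0502 and 0.0521) or fresh replicate 3 (0.085 and 0.0589), and for Eif4a1 without fresh replicate 2 (0.12). On FPKM both helicases were called lower, at −0.28 each (adjusted p = 0.0014 and 3.3e-04, limma). Their shares of the eIF4A level were the same to within 0.04 percentage points, with Eif4a1 at 83.6% in both groups.

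The helicase cofactors moved apart. Eif4b was lower, with 311.2, 320.1 and 312.3 CPM in vitrified–warmed libraries and 400.3, 422.2 and 418.0 CPM in fresh libraries (log2 −0.40 ± 0.04, adjusted p = 2.91e-07, edgeR). Eif4h, which shares its RNA-binding role, was higher, with 186.2, 188.5 and 184.6 CPM in vitrified–warmed libraries and 154.7, 161.9 and 151.7 CPM in fresh libraries (log2 0.26 ± 0.04, adjusted p = 6.85e-05, edgeR), a call that was not kept on FPKM. Eif4a3, the helicase of the exon junction complex and not a cap factor, was called higher by 0.14 (adjusted p = 0.0281, edgeR) and the call was lost without vitrified–warmed replicate 1 (0.0943) or fresh replicate 1 (0.135), with a negative sign on FPKM (−0.03).

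For the exchange factor eIF2B, mRNA was lower for 4 of its 5 subunits, with a median log2 fold change of −0.38. None was higher, also in DESeq2 and at an unadjusted p under 0.05. The shares of all genes tested were 32.8% lower and 31.6% higher. Eif2b3 (chr4:117019399-117086852), the γ subunit of the catalytic pair, had 50.2, 50.5 and 55.3 CPM in vitrified–warmed libraries, against 75.6, 78.4 and 84.3 CPM in fresh libraries. The groups were clearly apart, and the level was 1.53-fold lower (log2 −0.61 ± 0.06, adjusted p = 7.73e-07, edgeR). Eif2b5, the catalytic ε subunit, had 117.0, 108.5 and 122.5 CPM in vitrified–warmed and 139.4, 155.2 and 157.5 CPM in fresh libraries (log2 −0.38 ± 0.06, adjusted p = 3.53e-05, edgeR). Of the regulatory subunits, Eif2b4 was lower by −0.43 and Eif2b1 by −0.22 on the log2 scale, and the call of Eif2b1 was lost with exon length correction and without fresh replicate 3 (adjusted p = 0.0668, edgeR). Eif2b2 overlapped between groups (−0.05, adjusted p = 0.669). The subunits stood between 6.60 and 24.8 FPKM in vitrified–warmed and between 11.4 and 36.3 FPKM in fresh blastocysts.

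Its substrate eIF2, which carries the initiator tRNA, did not move as a unit. Eif2s2, the β subunit, was the member with the second highest level per length, at 783 ± 43.4 FPKM in vitrified–warmed and 761 ± 5.25 FPKM in fresh libraries (SD, n = 3 each). On the CPM scale it had 3590, 3349 and 3631 in vitrified–warmed libraries, against 2981, 3070 and 3069 in fresh libraries (log2 0.21 ± 0.03, adjusted p = 5.70e-05, edgeR), and on FPKM the difference was 0.04 (adjusted p = 0.434, limma). Eif2s1, the α subunit whose phosphorylation inhibits eIF2B, was called higher by 0.19 ± 0.05 (adjusted p = 0.00579, edgeR) although the groups overlapped, and the call was lost on FPKM. Per length, Eif2s2 stood 16.8 ± 0.566 times above Eif2s1 in vitrified–warmed and 16.6 ± 0.643 times in fresh libraries.

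The γ subunit was lower in both copies, and more so in the Y-linked copy. Eif2s3y (chrY:1010578-1046811) had 28.7, 22.7 and 27.2 CPM in vitrified–warmed libraries, against 48.1, 49.6 and 51.3 CPM in fresh libraries (log2 −0.92 ± 0.08, adjusted p = 2.54e-07, edgeR). Eif2s3x had 467, 432 and 476 CPM in vitrified–warmed libraries and 490, 525 and 506 CPM in fresh libraries, which lay close together without overlap (log2 −0.14 ± 0.04, adjusted p = 0.00628, edgeR; 0.237 with exon length correction). Both copies together summed to 496, 455 and 503 CPM in vitrified–warmed and 538, 574 and 557 CPM in fresh libraries. Eif2s3x stood 14.4 ± 1.13 times above Eif2s3y per length in vitrified–warmed and 8.37 ± 0.294 times in fresh libraries. Other Y-linked genes, looked up after these values were seen, were also lower (Ddx3y −0.63, Kdm5d −0.81, Uty −0.96 on the log2 scale), and Xist, which is expressed from the inactive X of female cells, was higher (0.40, with 1161 ± 41.5 CPM in vitrified–warmed and 881 ± 20.5 CPM in fresh libraries). The part of the sex ratio of the 2 pools in the Eif2s3y difference was not tested.

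**Figure D3:**
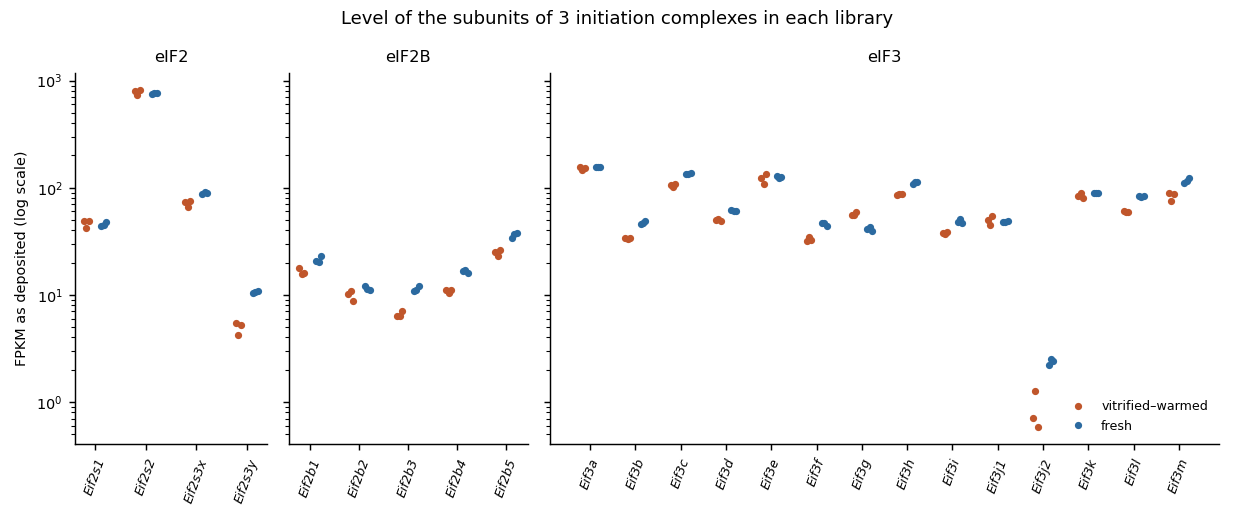
Level per exon length (deposited FPKM, log axis) of the subunits of eIF2, eIF2B and eIF3, with 1 point per library, vitrified–warmed (orange) left of fresh (blue) for each gene. Within eIF2 the levels span from about 5 FPKM for Eif2s3y to 783 FPKM for Eif2s2 in vitrified–warmed libraries, and Eif3j2 lies far below the other eIF3 subunits.

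The factors that can deliver the initiator tRNA without eIF2 were Eif2a, which was lower (log2 −0.15 ± 0.05, adjusted p = 0.0109, edgeR; call lost with exon length correction and without fresh replicate 2 or 3, at 0.0628 and 0.0629), and Eif2d, which overlapped between groups (−0.04; called lower on FPKM at −0.20, adjusted p = 0.0142, limma). Of the 5 genes of the eIF1 and eIF1A kind, 2 were higher and 1, which is not a known scanning factor, was lower. Eif1, which holds the subunit open for start codon selection, had 240.2, 228.7 and 229.3 CPM in vitrified–warmed libraries, against 185.5, 193.1 and 188.0 CPM in fresh libraries. The groups did not overlap (log2 0.30 ± 0.04, adjusted p = 9.73e-06, edgeR), and its paralog Eif1b overlapped (0.15 ± 0.12; −0.03 on FPKM). Eif1a was higher, with 258.0, 219.8 and 253.4 CPM in vitrified–warmed and 196.3, 214.5 and 207.5 CPM in fresh libraries (log2 0.24 ± 0.06, adjusted p = 0.00204, edgeR; 0.447 on FPKM), and its X-linked paralog Eif1ax did not pass (−0.05 ± 0.05) but was called lower on FPKM (−0.22, adjusted p = 0.00232, limma) and with exon length correction (−0.20, adjusted p = 0.0425, edgeR). Eif1ad, a protein with an eIF1A domain, was lower (−0.31 ± 0.09, adjusted p = 0.00749, edgeR; call lost with exon length correction, without vitrified–warmed replicate 3 at 0.0559 and without fresh replicate 3 at 0.0533).

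Of 14 eIF3 genes, 4 were higher and 9 were lower, with a median of −0.18, against 31.6% higher and 32.8% lower among all genes tested. eIF3 is the scaffold on the 40S subunit that binds the other initiation factors and the mRNA. Eif3g (chr9:20894349-20898590), an RNA-binding subunit, stood apart from the others with 107.0, 106.7 and 112.7 CPM in vitrified–warmed libraries, against 69.2, 73.6 and 67.9 CPM in fresh libraries. All vitrified–warmed libraries were above all fresh libraries, and the level was 1.55-fold higher (log2 0.63 ± 0.05, adjusted p = 9.24e-08, edgeR). The other 3 higher subunits differed by 0.13 (Eif3a), 0.14 (Eif3e, with overlapping groups) and 0.22 (Eif3j1), and on FPKM Eif3a and Eif3e took a negative sign (−0.04 each) and Eif3j1 lost its call.

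The lower eIF3 subunits other than Eif3j2 lay between −0.12 (Eif3d) and −0.32 (Eif3f). Eif3f had 85.1, 94.9 and 85.9 CPM in vitrified–warmed libraries and 111.4, 114.1 and 106.0 CPM in fresh libraries (adjusted p = 9.22e-05, edgeR). Eif3b, which holds the core of the complex together, was lower by a like amount (−0.31 ± 0.04, adjusted p = 8.32e-06, edgeR), as were Eif3l and Eif3m (−0.30 each). Eif3k was the single eIF3 gene that did not pass (0.10, adjusted p = 0.0939, edgeR; 0.0443 in DESeq2; −0.07 on FPKM). Calls of Eif3a, Eif3c, Eif3d and Eif3e were lost with exon length correction. With a library left out, Eif3e lost its call without any but vitrified–warmed replicate 2 (0.062 to 0.104), Eif3d without vitrified–warmed replicate 1 or 3 or fresh replicate 2 (0.0518 to 0.092), and Eif3i without fresh replicate 2 (0.0705).

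Eif3j2 (chr18:43475418-43477836) is a near copy of Eif3j1, the loosely bound j subunit, and their coding sequences were 99.2% identical, so how fragments were divided between them is uncertain. Eif3j2 had 3.1, 5.5 and 2.5 CPM in vitrified–warmed libraries, against 8.4, 9.7 and 9.3 CPM in fresh libraries (log2 −1.33 ± 0.23, adjusted p = 1.38e-04, edgeR). Vitrified–warmed replicate 2 stood nearest to the fresh libraries and still below them. Its share of the level of both genes was 1.72% ± 0.871 in vitrified–warmed and 4.67% ± 0.289 in fresh libraries.

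**Figure D4:**
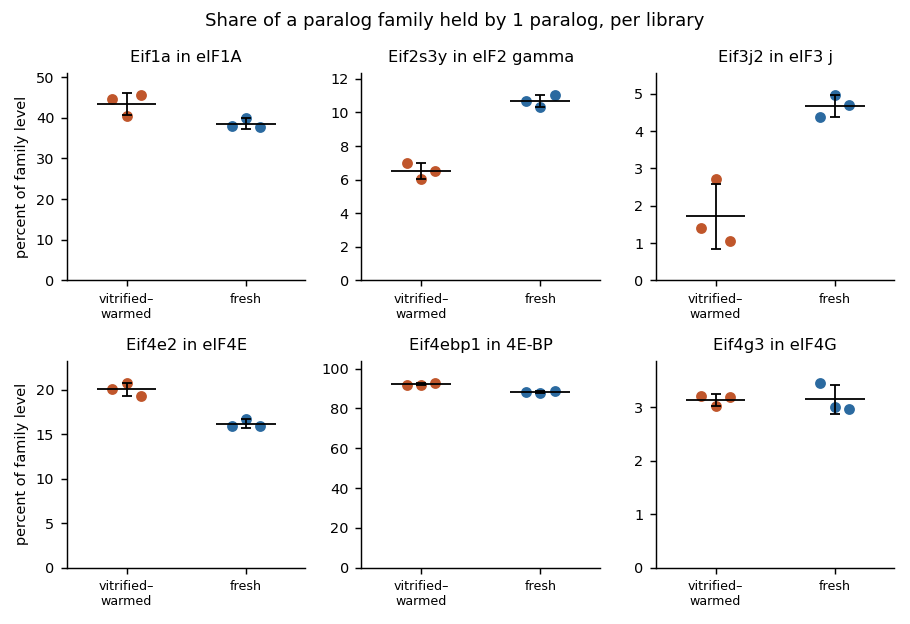
Percentage of a paralog family's summed level per exon length that 1 paralog holds (axis from 0), with 1 point per library, vitrified–warmed left and fresh right; lines give the mean and bars the SD (n = 3). Eif1a, Eif4e2 and Eif4ebp1 hold more and Eif2s3y and Eif3j2 hold less of their family in vitrified–warmed libraries, while Eif4g3 overlaps between groups.

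Shares within families were tested for 24 members by an exact two-sided permutation test over libraries, in which 3 against 3 can give no p below 0.1 (adjusted p = 0.171 over the 24). Groups were fully apart for both eIF1A genes, with Eif1a at 43.5% ± 2.71 in vitrified–warmed and 38.6% ± 1.254 in fresh libraries. They were also apart for Eif2s3y, with 6.51% ± 0.476 in vitrified–warmed and 10.7% ± 0.335 in fresh libraries. In the 4E-BP family Eif4ebp1 held 92.1% ± 0.628 in vitrified–warmed and 88.3% ± 0.424 in fresh libraries, and Eif4ebp2 held 7.44% ± 0.540 in vitrified–warmed and 9.98% ± 0.519 in fresh libraries although its own level was higher.

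Of the factors of subunit joining, Eif5, which makes eIF2 hydrolyse its GTP, was lower with 681, 626 and 679 CPM in vitrified–warmed libraries and 726, 752 and 743 CPM in fresh libraries (log2 −0.16 ± 0.04, adjusted p = 0.00147, edgeR; call lost with exon length correction). Eif5b, which joins the subunits, did not pass (−0.06, adjusted p = 0.174, edgeR), and on FPKM it was called lower (−0.23, adjusted p = 0.00144, limma). Eif6, which keeps free 60S subunits from joining, was lower with 36.8, 34.9 and 33.2 CPM in vitrified–warmed and 44.2, 49.1 and 42.0 CPM in fresh libraries (log2 −0.37 ± 0.08, adjusted p = 6.64e-04, edgeR).

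Both eIF5A genes were lower. Eif5a, which relieves ribosomes stalled on difficult peptide bonds and carries the amino acid hypusine, had 500.9, 514.5 and 519.0 CPM in vitrified–warmed libraries, against 644.7, 654.3 and 672.7 CPM in fresh libraries. The groups were far apart for a gene of this level, at 142 ± 3.16 FPKM in vitrified–warmed and 205 ± 3.60 FPKM in fresh libraries (log2 −0.36 ± 0.03, adjusted p = 3.41e-07, edgeR). Its span overlaps by 439 bases that of Gps2 on the opposite strand, which was itself lower (−0.82) and far less abundant, at 9.38 ± 1.25 CPM in vitrified–warmed and 16.6 ± 1.42 CPM in fresh libraries. Eif5a2 had 3.2, 3.8 and 2.2 CPM in vitrified–warmed libraries and 5.2, 5.1 and 5.8 CPM in fresh libraries (log2 −0.83 ± 0.23, adjusted p = 0.00531, edgeR) and made up less than 0.35% of the eIF5A level in every library.

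Of the 8 Eef genes tested, 5 were lower and none higher, with a median of −0.14, against 32.8% lower and 31.6% higher among all genes. The 8 include the kinase Eef2k and the methyltransferase Eef2kmt, which are not elongation factors, and Eef2kmt is among the 5. With an unadjusted p under 0.05 Eefsec counts as higher, and DESeq2 called Eef1b2 higher (0.07, adjusted p = 0.0354). Eef1a1, which delivers aminoacyl-tRNA and is the most abundant member, had 5429, 5338 and 5394 CPM in vitrified–warmed libraries, against 5775, 5957 and 5980 CPM in fresh libraries. The groups did not overlap, and the difference of −0.13 ± 0.03 on the log2 scale (adjusted p = 8.02e-04, edgeR) was lost with exon length correction (−0.10, adjusted p = 0.135). The muscle and neuron paralog Eef1a2 had 4, 2 and 5 fragments in vitrified–warmed and 3, 4 and 6 in fresh libraries and was not tested. Among the subunits that reload eEF1A with GTP, Eef1d was lower with 194.4, 201.0 and 193.0 CPM in vitrified–warmed and 249.4, 267.6 and 264.7 CPM in fresh libraries (log2 −0.41 ± 0.04, adjusted p = 6.05e-07, edgeR). The scaffold subunit Eef1g was lower by −0.16 ± 0.04 (adjusted p = 0.00114, edgeR), and the exchange subunit Eef1b2 did not pass (0.05, adjusted p = 0.167, edgeR), with a sign that turned on FPKM (−0.12).

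Eef2, the translocase, had 1624, 1659 and 1577 CPM in vitrified–warmed libraries, against 1887, 1984 and 1945 CPM in fresh libraries. No library of one group reached the other group, and the level was 1.20-fold lower (log2 −0.26 ± 0.03, adjusted p = 5.71e-06, edgeR). Its inhibitory kinase Eef2k overlapped between groups (−0.02 ± 0.17). Eef2kmt, the lysine methyltransferase of eEF2, had 6.3, 7.8 and 8.0 CPM in vitrified–warmed and 16.0, 13.7 and 15.1 CPM in fresh libraries (log2 −1.02 ± 0.14, adjusted p = 1.05e-05, edgeR). Its span overlaps by 753 bases that of Alg1 on the opposite strand, which was also lower (−0.59), and whether counting used the strand is not given in the sources used here. The selenocysteine factor Eefsec was not past the test although its groups did not overlap (0.30 ± 0.14, adjusted p = 0.0714, edgeR), and it was called higher without vitrified–warmed replicate 2 (adjusted p = 0.0416), with only genes above 1 FPKM (0.0483) and with exon length correction (0.038).

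Across the 57 tested members the log2 fold change had a Pearson r of −0.146 with log2 exon length and of 0.408 with log2 mean FPKM (Spearman 0.249), as a description over genes that share the same 6 libraries. Of 46 members with a RefSeq promoter (GRCm38.p6, 250 bases before to 50 after the start), 12 (26.1%) held the E-box CACGTG, a palindrome that reads alike on both strands, against 8.09% of 27025 genes. The median log2 fold change was −0.07 in the 12 with it and −0.12 in the 33 tested members without it, and a match to these letters is no evidence of binding.

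Regulators and partners of the factors were described from lists of the pathway. The counts here and in the next paragraph stand beside 31.6% higher and 32.8% lower among all genes tested, and no list was tested as a set. Of 12 genes for the eIF2α kinases and the phosphatase that opposes them, 4 were higher and 4 lower (median 0.04), among them the kinase Eif2ak1 (−0.75) and the phosphatase subunits Ppp1r15b (0.47), Ppp1ca (−0.29) and Ppp1cc (0.19). Eif2ak2, the kinase PKR, was named after its values were seen and had 58, 59 and 55 fragments in vitrified–warmed libraries against 2, 3 and 0 in fresh libraries. Its level was low, with a mean of 0.349 FPKM over all libraries. Of 15 genes of mTORC1, the S6 kinases and the eIF4E kinases, 5 were higher and 6 lower (median −0.09), with the eIF4A inhibitor Pdcd4 at 0.70, the mTORC1 activator Rheb at 0.48 and the mTOR inhibitor Deptor at −0.33.

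Of 8 poly(A)-binding proteins and partners, 6 were tested, 3 were higher and 2 lower (median 0.12), with Pabpc1 at 0.16 and its partners Paip1 at 0.26, Paip2b at 0.28 and Paip2 at −0.15. Of 9 termination, recycling and reinitiation factors 4 were higher and 3 lower (median 0.15), with Mcts2 at 0.69, Mcts1 at 0.24, Denr at 0.19 and the ribosome rescue factor Pelo at −0.40. Of 9 enzymes that make hypusine on eIF5A or diphthamide on eEF2, 5 were lower and none higher in edgeR, nor in DESeq2 or at an unadjusted p under 0.05 (median −0.54), all 5 below 5 FPKM. Of 10 mitochondrial translation factors 1 was higher and 3 lower (median −0.09), with the elongation factor Tufm at −0.64 and the recycling factor Mrrf at −0.27. Cytosolic ribosomal proteins went the other way from the members in the edgeR fit, with 59 of 86 tested genes higher and 9 lower (median 0.18). They supplied 4.79% to 5.03% of fragments in vitrified–warmed and 4.39% to 4.47% in fresh libraries. Neither this list nor those above were examined on FPKM or with exon length correction, on which calls of the members depended.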

How the data were processed

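Per the deposited table, the authors counted exon fragments per gene (whole-number counts, not normalized) and computed FPKM from these counts, the exon length and a library total. They trimmed and aligned reads in CLC Genomics Workbench against GRCm38; the annotation release is not given in the sources used here. Columns of the authors' own comparison in the deposited file (log2 fold change, with and without an added constant, and p-value) and further annotation columns were not used. Of 28887 entries, 8 named no gene and held 0 fragments.

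Counts were filtered with filterByExpr, scaled by TMM and tested with edgeR 4.0.16 (robust quasi-likelihood, R 4.3.3) over 12774 genes, with Benjamini–Hochberg adjustment; CPM values use TMM factors. Alternatives used DESeq2 1.42.0 and limma 3.58.1 on the log2 scale of the deposited FPKM. On simulated libraries of 12219 genes, changes of 1.25-fold were recovered in 48% of cases and those of 1.5-fold in 82%. Changes of 2-fold were recovered in 94% and those of 4-fold in 98%. These rates describe the simulated libraries only. Recovery in the libraries of the study, where 64.4% of all genes tested passed, was not tested. Same-numbered libraries did not deviate together (correlations −0.0116, −0.0292 and 0.033), so the numbers were not taken to pair them. Promoters and coding sequences came from RefSeq and GENCODE M21. Summaries used Python 3.11.15 with pandas 2.3.3 and scipy 1.17.1.

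Members named with values are those past the test with a 1.5-fold change above 0.5 FPKM, the 6 highest, the paralog families and the extremes of a role. Other genes of the pathway are at most 4 a list, the largest differences among called genes above 5 FPKM. Eif2ak2 and the called genes below 5 FPKM of the mTORC1 list lie outside this rule and were added after their values were seen. Further members are named with values chosen after these were seen. The members and lists were chosen with earlier results of these data known.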

Additional observations from a re-analysis of the deposited data

Results flagged for a closer look

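Eif2c5, which the member rule left out because it is annotated as a miscellaneous RNA, gave 8 fragments over the 3 vitrified–warmed libraries (2, 5 and 1) and 0 over the 3 fresh libraries. It stood out because it is a signal outside the reported comparisons that was above the level of the fresh libraries, where a count of 0 allows up to 3 fragments. The left-out entries Eif2s3x-ps1 and Eif5al3-ps showed a like pattern, each with 4 fragments over the vitrified–warmed and 0 over the fresh libraries. How many genes of the whole table show such a pattern was not counted, and no test was made.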

How the results depend on the processing

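The counts of members called higher and lower, 12 and 32, were 14 and 31 in DESeq2, 13 and 31 with scaling to 12 housekeeping genes, 12 and 32 with DESeq2 size factors or no filter on low counts, 15 and 29 with only genes above 1 FPKM, and 10 and 23 with exon length correction. With limma on log2(FPKM + 0.5) or log2(FPKM + 0.1) they were 4 and 38, where the median of all genes stood at −0.13 and −0.16. With the study's cut-offs applied to the edgeR values they were 2 and 7, and with an adjusted p and a 2-fold floor 0 and 4. Leaving out 1 library gave 10 to 13 higher and 26 to 32 lower members, and 10 members lost their call in at least 1 of these fits (Eif1ad, Eif2a, Eif2b1, Eif3d, Eif3e, Eif3i, Eif4a1, Eif4a2, Eif4a3 and Eif4ebp3). A replicate block gave 12 higher and 31 lower members and ended the call of Eif4ebp3 (adjusted p = 0.096, edgeR). Of the 44 called members, 24 (4 higher, 20 lower) kept their call in every alternative that tested them, and 13 lost it with exon length correction; of the 12 higher members 8 lost their call on FPKM and 3 of these (Eif3a, Eif3e and Eif4a3) turned sign. The cause of these differences was not tested.

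The difference in the members' share of fragments was −0.16 percentage points over protein-coding fragments, against −0.08 over all fragments (−0.09 to −0.06 with 1 library left out). Among the 31 members of the naming rule, signs turned for 5, none of them called. On the log2 scale Eif1b was −0.0281 and −0.0297 on FPKM with a pseudocount of 0.5 and 0.1, and Eif4e2 was −0.113 and −0.119 on FPKM and −0.0837 with exon length correction. Eif4g1 was 0.0134 in DESeq2, 0.0135 with its size factors, 0.0268 with housekeeping scaling and 0.0319 above 1 FPKM, and ran between −0.0329 and 0.0213 without single libraries. Eif4g2 was 0.0034 with housekeeping scaling and 0.0086 above 1 FPKM. Eif4g3 was 0.0042 in DESeq2 and with its size factors, 0.0155 with housekeeping scaling and 0.022 above 1 FPKM, and ran between −0.0409 and 0.0301 without single libraries. Depth limits the statements on Eif4e3, Eif4e1b and Eef1a2, which were not tested.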

Other observations

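Among entries that the member rule left out as not protein coding, the pseudogene Eif4a-ps4 had 44, 34 and 57 fragments in vitrified–warmed libraries and 98, 105 and 107 in fresh libraries, and Eef1a1-ps1 had 2, 4 and 2 in vitrified–warmed libraries and 4, 0 and 5 in fresh libraries. These were picked after their values were seen, and no test was made.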
